A study of Homo sapiens with 40 samples.

Results

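The 10 genes described here encode transcription factors and their inhibitors whose messenger RNAs are known to turn over quickly: MYC, SOX4, SOX11, HES1, ID1, ID2, ID3, KLF6, KLF10 and BHLHE40. They were taken by symbol from the 57992 rows of the deposited count table. The list of symbols was drawn up with earlier results of these data known. All 10 were found, and 8 passed the filter on low counts in every fit. SOX11 passed only in the fits that held the LMNB1 construct, through a single replicate of it, and ID3 passed in none.

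The cells were HEK293T, a human embryonic kidney line, carrying the engineered peroxidase APEX2 in the mitochondrial matrix (MITO), at the endoplasmic reticulum membrane (ERM), in the cytosol (NES, a nuclear export signal) or at the nuclear lamina (LMNB1). APEX2 uses biotin-phenol and hydrogen peroxide to attach biotin to molecules next to it. Cells of the labelled arms with a nucleoside had 6-thioguanosine (s6G) or 4-thiouridine (s4U) at 100 uM for 5 h, which cells build into RNA made in that time. Biotin-phenol was at 0.5 mM for 30 min and hydrogen peroxide at 1 mM for 1 min. The APEX-only arm had no thionucleoside, and the unlabelled arm had neither thionucleoside nor biotin-phenol but the same peroxide. Each arm had input libraries, made before enrichment, and enriched libraries of the RNA that streptavidin beads bound. The MITO cells were taken through all 4 arms and the LMNB1 cells through all except s4U, whereas ERM and NES cells had the s6G arm and no other. That gives 40 libraries in 18 groups of 2, or of 4 for ERM. For each construct the promoter, the vector and whether cells were 1 clone were not given in the sources used here. The treatment labels of the enriched ERM libraries and of the LMNB1 s6G libraries name s4U, while titles and the design text name s6G, which was used here. Every library was polyA-selected.

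MYC pairs with MAX to drive growth genes, and its mRNA is a standard example of fast decay. SOX4 and SOX11 are SoxC factors of developing tissues, HES1 is a repressor switched on by Notch signalling, and BHLHE40 is a repressor of the clock and of hypoxia programmes. ID1, ID2 and ID3 lack a DNA-binding region, hold E proteins away from DNA and are induced by BMP signals, while KLF6 and KLF10 are zinc-finger factors induced early by growth factors and TGF-beta. Such mRNAs hold a high share of newly made molecules at any moment.

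Promoter sequences from RefSeq (GRCh38.p14) were matched for 7 of the 10 genes, not for MYC, KLF10 or SOX11. The 160 bases before the start site are shown for SOX4 and KLF6, which had the largest log2 fold changes of the tested genes after enrichment with ERM and NES, and for HES1 and ID2, which had the smallest. Each is written 5' to 3' on its gene's strand: SOX4 at chr6:21593591-21593750 (plus), KLF6 at chr10:3785210-3785369 (minus), HES1 at chr3:194135988-194136147 (plus) and ID2 at chr2:8681896-8682055 (plus). Capitals mark the NF-Y box CCAAT, the E-box CACGTG, the box TATAA and the motif TGGGAA on either strand, the last being the core bound by the Notch effector RBPJ.
SOX4: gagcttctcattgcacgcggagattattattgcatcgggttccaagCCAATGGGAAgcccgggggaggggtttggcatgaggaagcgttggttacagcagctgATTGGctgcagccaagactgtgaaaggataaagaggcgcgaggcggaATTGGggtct
KLF6: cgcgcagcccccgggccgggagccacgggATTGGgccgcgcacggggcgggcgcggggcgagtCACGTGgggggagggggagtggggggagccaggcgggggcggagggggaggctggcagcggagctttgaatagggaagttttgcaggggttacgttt
HES1: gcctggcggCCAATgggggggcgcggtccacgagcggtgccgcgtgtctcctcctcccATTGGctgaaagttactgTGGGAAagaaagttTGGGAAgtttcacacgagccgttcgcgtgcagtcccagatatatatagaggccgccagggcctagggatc
ID2: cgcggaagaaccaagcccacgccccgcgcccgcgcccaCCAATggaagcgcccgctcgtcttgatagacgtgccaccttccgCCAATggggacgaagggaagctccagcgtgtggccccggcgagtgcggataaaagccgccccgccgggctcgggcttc
The NF-Y box CCAAT was in 5 of the 7 promoters taken over 250 bases before to 50 after the start, and in 34.6% of 35116 promoters of that length. The E-box CACGTG, which MYC and BHLHE40 bind, was in 2 of 7 (KLF6 and BHLHE40) and in 7.26% of all, and TGGGAA in 2 of 7 (SOX4 and HES1) and in 24% of all. TATAA was in 2 of 7 (ID1 and ID3) and 20.4%, and GGGCGG, the SP and KLF box, in 4 of 7 and 45%. HES1 held TGGGAA 84 and 70 bases before its start, and in SOX4 the match overlaps a CCAAT. A match is a description of the letters and not of binding.

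All 10 genes are short. In the RefSeq annotation of GRCh38.p14 they span 1222 to 9214 bases, with a median of 5378, against a median of 33167 bases over 13201 tested protein-coding genes. None of the 10 is longer than 10000 bases, a length that 19.3% of those genes do not exceed. SOX4 lies on chromosome 6 from 21593751 to 21598619, KLF6 on chromosome 10 from 3775996 to 3785209, and HES1 on chromosome 3 from 194136148 to 194138732. ID2 and SOX11 lie on chromosome 2 (8682056 to 8684461 and 5692384 to 5701385), ID1 on chromosome 20 (31605289 to 31606510), ID3 on chromosome 1 (23557926 to 23559501) and BHLHE40 on chromosome 3 (4979437 to 4985323). MYC (127735434 to 127742951) and KLF10 (102648784 to 102655725) lie on chromosome 8. BHLHE40 overlaps the noncoding BHLHE40-AS1, which had at most 9 counts in a library. The strand setting was not given, so whether reads of the 2 were told apart there is not known. ID3 overlaps the noncoding LOC124903876, which is not a row of the count table.

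Libraries held 123341 to 14496768 counts, and inputs 3514076 to 12602028. The MITO unlabelled enriched libraries stood apart, with 123341 and 842177 counts, and the first of them held 2 to 22 counts of each of the 8 tested members. Of 8 genes that HEK293 cells are known for, 7 exceeded 1 CPM (counts scaled to a common library size) in all 20 inputs, and PAX2 ranged from 0.404 to 12.4 CPM. Of 8 blood markers PTPRC, CD3E, MS4A1 and HBB were at 0 in all inputs, and the blood list summed to 2.83 to 7.88 CPM. Fibroblast and endothelial markers summed to 23.7 to 93.3 CPM, nearly all of it COL1A1, and hepatocyte markers to 0 to 1.22 CPM. Replicates are called biological in the design text, and p-values measure the spread between these libraries.

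On a scale that allows for gene length, MYC was the most abundant of the 10 genes before enrichment. In the authors' deposited TPM values, which merge both replicates and so carry no error, MYC had 362 TPM in the MITO APEX-only input, ID2 218, SOX4 187, HES1 117 and ID1 95.3. KLF10 followed at 39.5, KLF6 at 38 and BHLHE40 at 22.2 TPM. ID3 had 0.698 TPM and SOX11 was listed at 0. With s6G the authors' MITO input values were 639 TPM for MYC, 259 for ID2, 211 for SOX4, 91 for HES1, 63.2 for KLF10, 57.9 for ID1, 48.2 for KLF6 and 22.3 for BHLHE40, so MYC led in both and BHLHE40 was the lowest of the 8. The merged columns do not say which neighbours in this order differ beyond replicate spread.

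ID3 and SOX11 were close to the limit of detection. ID3 had 18 counts over all 40 libraries, in 11 of them, and at most 3 in a library. SOX11 had 191 counts, in 17 libraries, of which 167 lay in the 6 LMNB1 libraries numbered 2. In those, SOX11 had 29 counts in the s6G input and 25 in the s6G enriched library. The APEX-only libraries numbered 2 had 44 counts before and 22 after enrichment, and the unlabelled ones 40 and 7. The 6 LMNB1 libraries numbered 1 held 0 to 5 counts of SOX11 and 11 in sum. MITO, ERM and NES libraries held 0 to 3 each. In bulk libraries fewer cells with SOX11 RNA and less RNA per cell cannot be told apart. Scaled to library size, SOX11 was higher in replicate 2 in 5 of 6 LMNB1 groups. The unlabelled enriched libraries were the exception, with 2.03 CPM in replicate 1 and 1.91 in replicate 2. SOX11 is 1 of the 9 members tested in the fits with LMNB1, and edgeR called it in no comparison there.

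**Figure D1:**
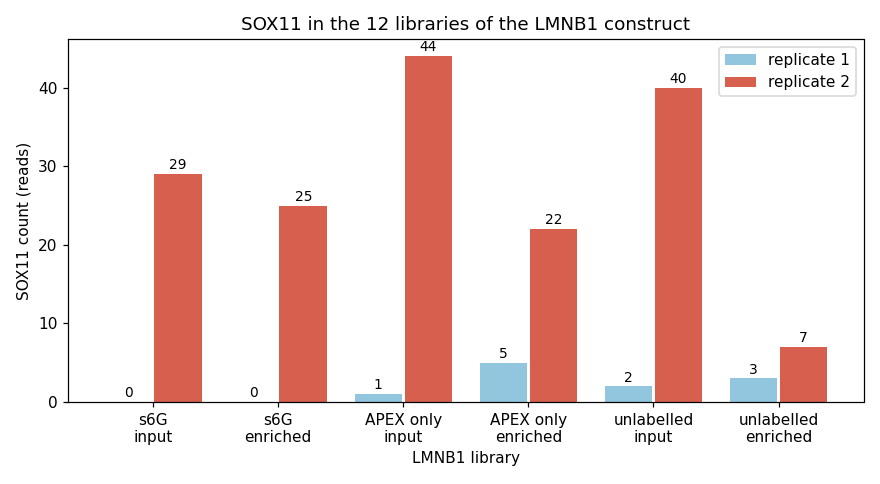
Read counts of SOX11 (vertical axis, reads) in the 12 LMNB1 libraries, by arm and fraction, for replicate 1 (blue) and replicate 2 (red). Replicate 2 holds 7 to 44 counts in each library and replicate 1 holds 0 to 5. Counts are not scaled to library size.

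The other members also differed somewhat between the 2 LMNB1 replicates. KLF10 was higher in replicate 2 in 6 of 6 LMNB1 groups, by 0.36 to 1.38 on the log2 scale, while HES1 was higher in 2 of 6. Such differences are taken out where each enriched library is compared with its own input, and those LMNB1 calls are given beside the enrichment results.

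The comparison of inputs asks whether a thionucleoside alone, before any pull-down, moved the level of these mRNAs. MYC, KLF10, KLF6, ID2, SOX4 and BHLHE40 had their highest MITO input levels with s6G. However, in the fits without replicate numbers no member passed the test in any comparison of inputs. In TMM-scaled CPM (library-size units corrected for composition, comparable within a construct), MYC had 698 and 459 CPM in the s6G inputs, 321 and 147 in the APEX-only inputs, 227 and 237 with s4U and 261 and 287 unlabelled. Both s6G libraries exceeded all 6 others, while the APEX-only libraries themselves spread from 147 to 321. KLF10, which represses growth downstream of TGF-beta, had 62.4 and 73.1 CPM with s6G against 37.9 and 23 with APEX only, and KLF6 had 59.4 and 75.1 against 39.3 and 37.7. Neither gene's s6G inputs overlapped those of the other 3 arms, and the same held for ID2, SOX4 and BHLHE40. The share of all genes set apart from the other 3 arms in this way was not counted. ID2 had 227 and 211 CPM with s6G against 161 and 105, and SOX4 158 and 214 against 135 and 103. HES1, at 36.5 and 34.5 CPM, lay within the range of its APEX-only inputs (28.9 and 37.8).

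The log2 difference between s6G and APEX-only MITO inputs was 1.31 ± 0.44 for MYC (SE, n = 2; edgeR adjusted p = 0.389) and 1.16 ± 0.33 for KLF10 (adjusted p = 0.273). KLF6 had 0.81 ± 0.29, ID2 0.72 ± 0.35, SOX4 0.65 ± 0.32, BHLHE40 0.47 ± 0.55, HES1 0.09 ± 0.30 and ID1 -0.27 ± 0.38. The median of the 8 was 0.68, against 0 over all 15151 genes. The s6G libraries were both above both APEX-only libraries for 6 of 8 members, and for 21.8% of all genes. edgeR called 0 of 8 members and 0.0528% of all genes, 3 of 8 members had an unadjusted p under 0.05 against 8.49% of all genes, and DESeq2 called 0.

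Against s4U, the other thionucleoside at the same dose and time, the differences of s6G inputs were of the same order. s6G minus s4U was 1.32 ± 0.44 for MYC (95% interval 0.40 to 2.24), 1.10 ± 0.33 for KLF10, 0.99 ± 0.32 for SOX4, 0.97 ± 0.35 for ID2, 0.89 ± 0.30 for KLF6 and 0.69 ± 0.31 for HES1. BHLHE40 had 0.63 ± 0.55 and ID1 -0.36 ± 0.39, and the median of the 8 was 0.93 against 0 over all genes. Both s6G libraries were above both s4U libraries for 7 of 8 members, and for 18.7% of genes. ID1 was the exception, with 12.2 and 9.36 CPM against 16 and 11.6. No gene of 15151 was called by edgeR (a share of 0%), 6 of 8 members had an unadjusted p under 0.05 against 4.67% of all genes, and DESeq2 called 0 members. s4U inputs against APEX-only inputs had a median of -0.12, from -0.60 ± 0.31 for HES1 to 0.09 ± 0.38 for ID1. Here edgeR and DESeq2 called 0, and 0 members had an unadjusted p under 0.05, against 3.85% of all genes. The 2 comparisons that involve s6G share the s6G libraries, and those against APEX only share that arm.

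In LMNB1 inputs, too, edgeR without replicate numbers called no member. SOX4 had 236 and 339 CPM with s6G, 163 and 202 with APEX only and 201 and 225 unlabelled. The s6G minus APEX-only difference was 0.66 ± 0.23 for SOX4, 0.59 ± 0.31 for MYC, 0.58 ± 0.30 for KLF6, 0.54 ± 0.47 for KLF10 and 0.53 ± 0.33 for ID2, and it was -0.34 ± 0.43 for BHLHE40 and -0.24 ± 0.35 for ID1. Groups did not overlap and were higher with s6G for 5 of 9 tested members, where 27.6% of all genes did so. edgeR called 0 of 9 members and 0.127% of genes, 1 member had an unadjusted p under 0.05 against 11.5% of genes, and DESeq2 called 0. The change with s6G did not differ detectably between the constructs: LMNB1 minus MITO was -0.67 ± 0.55 for MYC (interval -1.88 to 0.53) and -0.59 ± 0.50 for KLF10 (-1.69 to 0.51). edgeR called 0% of genes in that test, 0 of 9 members had an unadjusted p under 0.05 against 1.26% of genes, and DESeq2 called 0. Unlabelled against APEX-only inputs had medians of 0.06 (MITO) and 0.11 (LMNB1), with 0 members called by edgeR or DESeq2. In both, 0 members had an unadjusted p under 0.05, against 0.191% (MITO) and 0.641% (LMNB1) of genes.

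**Figure D2:**
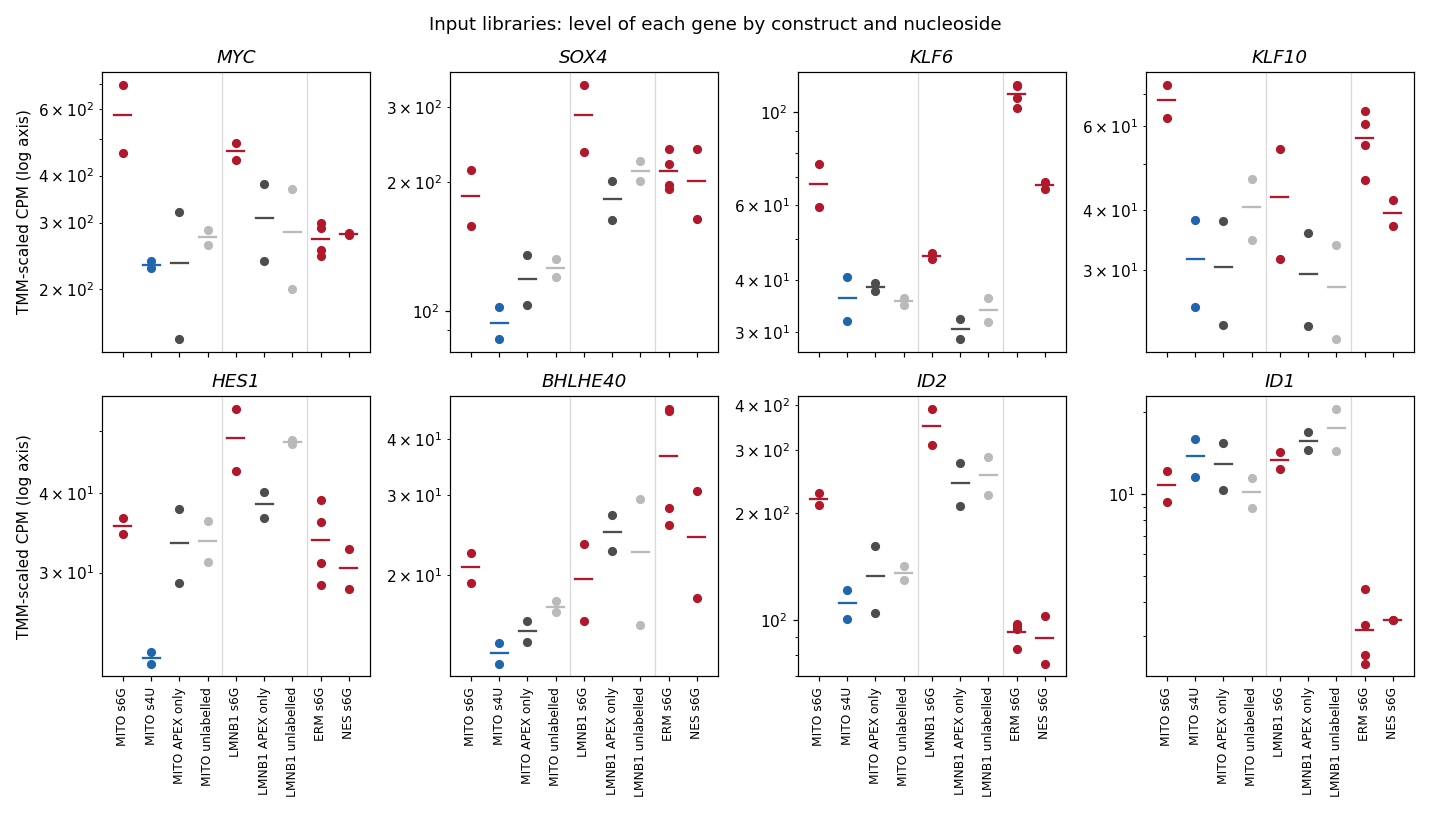
Level of the 8 tested genes in each input library (vertical axis, TMM-scaled CPM on a log axis), by construct and nucleoside (horizontal axis). Points are libraries, bars are group means, and grey lines part the sets scaled apart, so heights compare within a set. In MITO the s6G points of MYC, KLF6, KLF10, ID2, SOX4 and BHLHE40 lie above those of the other 3 arms.

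The ERM and NES sets were scaled together. ID1 had 2.38 to 4.46 CPM in those inputs, against 8.87 to 16 in MITO and 12.4 to 20.6 in LMNB1 inputs. Each construct was its own set of cultures, so construct and culture cannot be told apart.

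After enrichment with s6G at the endoplasmic reticulum membrane or in the cytosol, all 8 tested members rose over input. MYC had 300, 291, 253 and 244 CPM in the ERM inputs and 700, 689, 492 and 494 after enrichment, and it had 278 and 282 CPM in the NES inputs and 1267 and 972 after enrichment. SOX4, a SoxC factor of progenitor cells, had 239, 221, 193 and 197 CPM in ERM inputs and 752, 655, 654 and 673 in enriched ERM libraries. For NES it had 239 and 164 CPM before and 1541 and 990 after enrichment. No enriched library of MYC or SOX4 overlapped an input. In ERM, numbers 1 and 2 held 5342584 to 6664875 counts and numbers 3 and 4 held 12382757 to 14496768, and MYC was higher in the first pair both before and after enrichment.

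The largest log2 fold changes in ERM were 1.69 ± 0.15 for SOX4 (edgeR adjusted p = 1.76e-08) and 1.51 ± 0.11 for KLF6 (adjusted p = 2.31e-09, SE, n = 4). KLF10 followed with 1.39 ± 0.15, MYC with 1.13 ± 0.14, ID1 with 1.12 ± 0.28 and BHLHE40 with 1.03 ± 0.25. HES1, the Notch target, had 0.76 ± 0.13 and ID2 0.62 ± 0.15, the smallest rise (adjusted p = 0.00121). In NES the order was similar and the values larger: 2.65 ± 0.22 for SOX4, 2.47 ± 0.16 for KLF6, 2.26 ± 0.39 for ID1 and 2.11 ± 0.22 for KLF10 (SE, n = 2). MYC had 2.00 ± 0.20, BHLHE40 1.93 ± 0.37, HES1 1.85 ± 0.19 and ID2 1.44 ± 0.21 (adjusted p = 1.66e-05). As folds, SOX4 rose 3.22-fold in ERM and 6.28-fold in NES.

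All 8 of 8 members were called higher in both constructs, where 34.3% of genes were called higher in ERM and 28.7% in NES. The median of the members was 1.12 in ERM against 0.11 over all 15619 genes, and 2.05 in NES against 0.01. Every member was higher after enrichment in each of the 4 ERM replicate pairs, by 0.34 to 1.77 on the log2 scale of CPM plus 0.5. The same held in each of the 2 NES pairs, by 1.33 to 2.68. The share of all genes higher in every pair was not counted. The fitted estimate was above 0 for 54% of all genes in ERM and 50.3% in NES. ID1 varied most between pairs, from 0.34 to 1.51 in ERM and at 2.56 and 1.45 in NES, on 13 to 34 counts per ERM input library. KLF6 varied least in NES, at 2.48 and 2.44. ERM and NES had no APEX-only or unlabelled arm, so the rise with s6G has no control of the same construct.

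**Figure D3:**
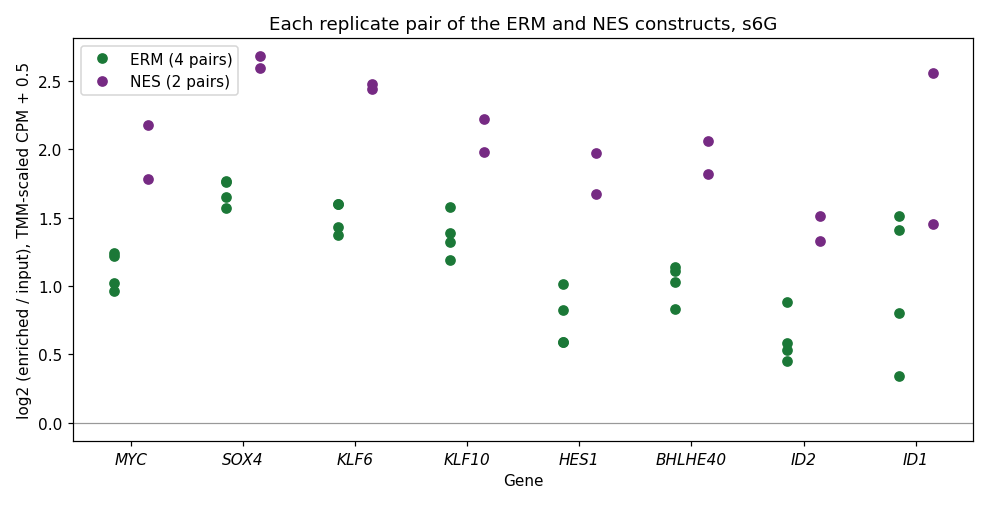
Log2 ratio of enriched over input (vertical axis, TMM-scaled CPM plus 0.5) for each replicate pair of ERM (green, 4 pairs) and NES (purple, 2 pairs), by gene. All points lie above 0, and the NES points lie above the ERM points for every gene except ID1.

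The mitochondrial matrix gave smaller and less certain values. With s6G, KLF6 had 59.4 and 75.1 CPM in the inputs and 103 and 151 after enrichment, HES1 36.5 and 34.5 before and 46.9 and 70.3 after, and SOX4 158 and 214 before and 220 and 374 after. MYC did not follow, with 698 and 459 CPM before and 655 and 470 after. BHLHE40 had 19.2 and 22.4 CPM before and 33.6 and 57.4 after. Log2 fold changes were 1.12 ± 0.55 for BHLHE40, 0.91 ± 0.29 for KLF6, 0.72 ± 0.31 for HES1, 0.67 ± 0.32 for SOX4, 0.67 ± 0.40 for ID1, 0.46 ± 0.33 for KLF10, 0.33 ± 0.35 for ID2 and -0.04 ± 0.43 for MYC (SE, n = 2). For 7 of 8 members both enriched libraries were above both inputs, and for 19% of all genes.

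edgeR called 0 of 8 members and 0.317% of genes, and 3 of 8 members had an unadjusted p under 0.05 against 8.86% of genes. DESeq2 called KLF6, with 2.66% of genes. With the replicate number as a block, which compares each enriched library with its own input, KLF6 (0.90 ± 0.23, adjusted p = 0.00824) and BHLHE40 (1.09 ± 0.33, adjusted p = 0.0296) were called, with 6.82% of genes. The direction depends on the scaling: the median of the members was 0.67 with TMM and -0.26 with total counts, where the median of all genes moved from 0.01 to -0.87. Relative to all genes the members' median was thus higher on both scales.

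s4U in the mitochondrial matrix gave KLF6 66.9 and 67 CPM after enrichment against 32 and 40.5 before, a log2 fold change of 0.88 ± 0.30. Both enriched libraries were above both inputs for 6 of 8 members and for 17.3% of genes. The median was 0.51 with TMM and 0.04 with total counts (all genes 0.01 and -0.44). edgeR called 0 members and 0.112% of genes, 1 member had an unadjusted p under 0.05 against 6.93% of genes, and DESeq2 called 0. With the block, KLF6 alone was called (0.89 ± 0.24, adjusted p = 0.0153), with 4.98% of genes. At the matched dose and time, enrichment with s6G minus that with s4U ranged over the members from -0.17 ± 0.49 (ID2, interval -1.21 to 0.87) to 0.61 ± 0.78 (BHLHE40, -1.04 to 2.26), and was 0.03 ± 0.42 for KLF6 (-0.86 to 0.91). No gene was called in that test by edgeR (0%) or DESeq2, and 0 members had an unadjusted p under 0.05 against 0.581% of genes.

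Without a nucleoside the median change of the members in MITO was near 0 or negative. In the APEX-only arm the median was 0.01, with MYC at -0.69 ± 0.44 (321 and 147 CPM before, 211 and 81.4 after) and SOX4 at -0.53 ± 0.32. edgeR called 0 members and 0.271% of genes, 0 members had an unadjusted p under 0.05 against 8.86% of genes, and DESeq2 called 0. With the block, MYC was called lower (-0.73 ± 0.24, adjusted p = 0.0412), with 7.15% of genes, and total counts called SOX4 lower (-1.27, adjusted p = 0.0323, with 7.27% of genes lower), where all genes had a median of -0.74. In the unlabelled arm the median was -0.53, with HES1 at -1.18 ± 0.41, on 2 and 17 counts after enrichment. edgeR called 0 members and 9.87% of genes, 3 members had an unadjusted p under 0.05 against 27.4% of genes, and DESeq2 called 0. With the block, HES1 (-1.23 ± 0.44, adjusted p = 0.0367) and KLF10 (-1.08 ± 0.39, adjusted p = 0.0392) were called lower, with 20.5% of genes.

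In tests of the difference between MITO arms, edgeR with all libraries and no block called no member. s6G minus APEX-only enrichment was 1.20 ± 0.45 for SOX4 and 1.07 ± 0.42 for KLF6, with a median of 0.62. edgeR and its blocked fit called 0 members (0% and 0.0594% of genes), 2 members had an unadjusted p under 0.05 against 2.45% of genes, and DESeq2 called 0. s4U minus APEX-only enrichment was 1.05 ± 0.45 for SOX4 and 1.04 ± 0.42 for KLF6, again with 0 called by edgeR, its blocked fit or DESeq2 and 2 at an unadjusted p under 0.05 against 2.74% of genes. Against the unlabelled arm, s6G enrichment was higher by 1.90 ± 0.51 for HES1 and 1.89 ± 0.50 for KLF6, and s4U enrichment by 1.74 ± 0.51 and 1.87 ± 0.50. edgeR called 0 members in either (0.376% and 0.264% of genes), with 4 members in each at an unadjusted p under 0.05 against 18.6% and 19.2% of genes, and DESeq2 called KLF6 in both (3.95% and 3.87% of genes). The block called HES1, KLF6, KLF10 and SOX4 for s6G (10.4% of genes) and HES1, KLF6 and KLF10 for s4U (10.6%). APEX-only minus unlabelled enrichment was 1.33 ± 0.51 for HES1, with 0 members called by edgeR (0.0396% of genes), by its blocked fit or by DESeq2, and 1 member at an unadjusted p under 0.05 against 16.4% of genes. The values against the unlabelled arm rest on the 2 unlabelled enriched libraries of low depth. Without the one of 123341 counts, a single library is left in that group, and the s6G calls without the block then changed.

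**Figure D4:**
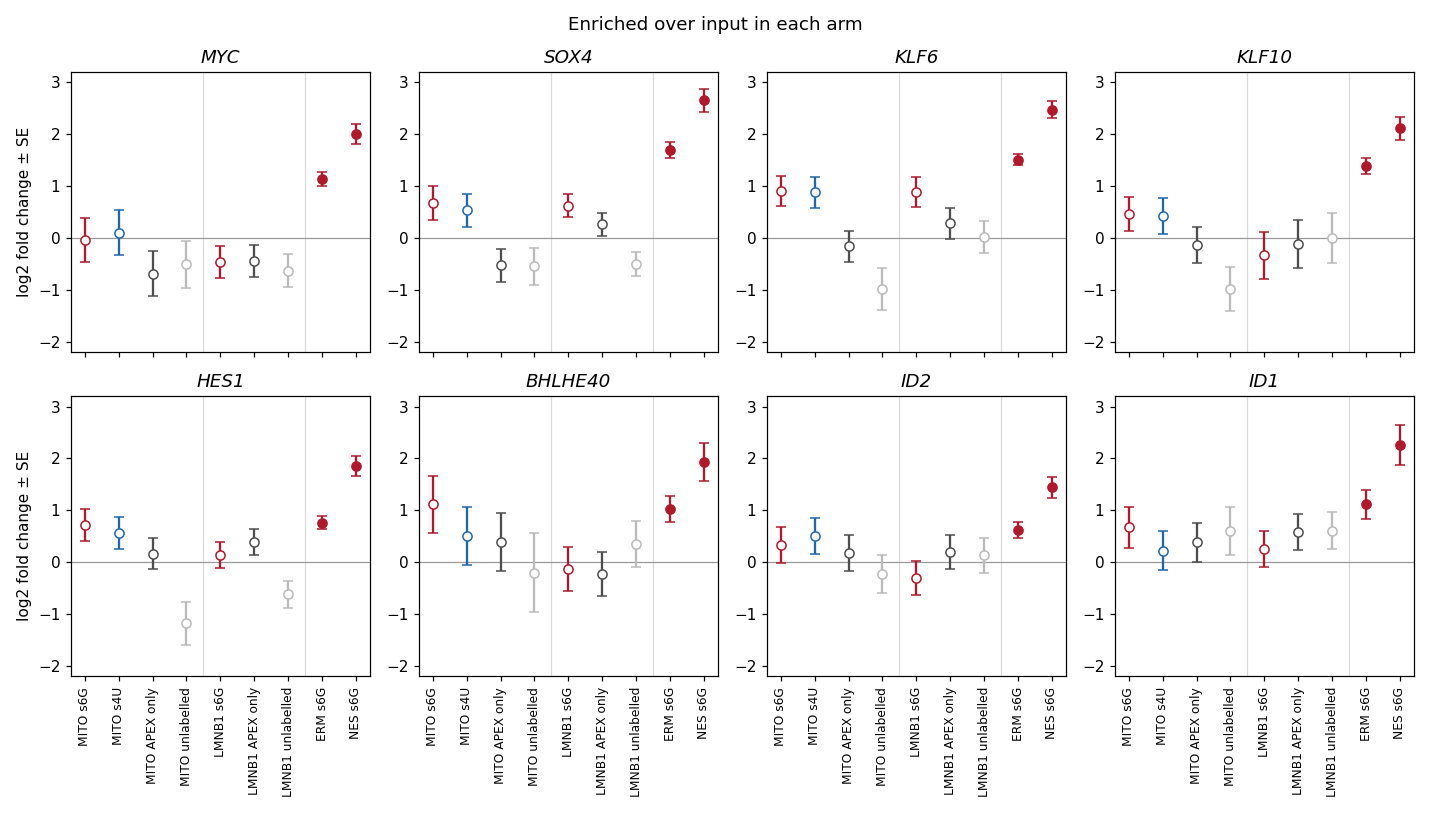
Log2 fold change of enriched over input (vertical axis, ± SE) in each arm (horizontal axis), one panel per gene; filled points passed an edgeR adjusted p of 0.05 without the replicate block. ERM and NES points are filled for all 8 genes, and those of the 7 MITO and LMNB1 arms are open.

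At the nuclear lamina with s6G the members' estimates lay on both sides of 0, and edgeR without the block called none. SOX4 had 236 and 339 CPM before and 398 and 484 after enrichment, and KLF6 46.3 and 44.8 before and 65 and 104 after. MYC had 489 and 441 CPM before and 342 and 330 after. The log2 fold change was 0.89 ± 0.29 for KLF6 and 0.62 ± 0.22 for SOX4. It was -0.47 ± 0.31 for MYC, -0.34 ± 0.46 for KLF10 and -0.31 ± 0.33 for ID2. edgeR called 0 of 9 members and 13% of genes, 2 members had an unadjusted p under 0.05 against 27.6% of genes, and DESeq2 called KLF6 and SOX4, with 18.8% of genes. The block also called KLF6 (0.86 ± 0.26, adjusted p = 0.0461) and SOX4 (0.63 ± 0.19, adjusted p = 0.0398), with 18.9% of genes. In the authors' deposited table the LMNB1 s6G log2 fold change was 0.71 for KLF6 (adjusted p = 0.0931), 0.45 for SOX4 (adjusted p = 0.237) and -0.63 for MYC (adjusted p = 0.0579), none of them under 0.05. The median over 8 members was 0, against 0.13 over all genes.

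The LMNB1 arms without s6G called no member by edgeR, its blocked fit or DESeq2. APEX-only values ran from -0.45 ± 0.31 (MYC) to 0.58 ± 0.34 (ID1), with 1.43% of genes called. In that arm 0 members had an unadjusted p under 0.05, against 15.8% of genes. Unlabelled values ran from -0.63 ± 0.31 (MYC) to 0.61 ± 0.35 (ID1), with 0.0363% of genes called and 2 members at an unadjusted p under 0.05 against 17.3% of genes. For SOX4 the enrichment with s6G minus that of the unlabelled arm was 1.12 ± 0.32 (adjusted p = 0.0775), which the block called (1.15 ± 0.27, adjusted p = 0.0386), as did DESeq2 (adjusted p = 0.0179, with 8.55% of genes). edgeR called 2.69% of genes in that test and the block 5.72%, and 1 member had an unadjusted p under 0.05 against 20.6% of genes. s6G minus APEX-only enrichment called 0 members and 0% of genes in edgeR with or without the block and 0 members in DESeq2. For that difference 0 members had an unadjusted p under 0.05, against 12.2% of genes. APEX-only minus unlabelled enrichment was 1.01 ± 0.36 for HES1 and 0.76 ± 0.32 for SOX4, with 0 members called by edgeR (0% of genes) or DESeq2 and 2 at an unadjusted p under 0.05 against 10.6% of genes. MYC was lower after enrichment in every pair of all 3 LMNB1 arms, with log2 ratios of -0.36 to -0.77. How many of all genes were lower in every such pair was not counted.

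With s6G the members' enrichment was then compared between constructs, over the 20 s6G libraries in 1 fit (ERM against NES in the fit of those 2). All 8 estimates were below the NES value with each of the other 3 constructs. These 3 differences share the NES libraries. LMNB1 minus NES was -2.59 ± 0.44 for KLF10, -2.58 ± 0.33 for MYC, -2.19 ± 0.54 for BHLHE40, -2.16 ± 0.37 for SOX4 and -2.12 ± 0.50 for ID1 (SE, n = 2). ID2 had -1.87 ± 0.30, HES1 -1.84 ± 0.30 and KLF6 -1.70 ± 0.31. All 8 were called, of 9 tested, and 19.2% of genes were called lower. The ninth, SOX11, had no count in the NES libraries and no usable estimate. The median was -2.14 for the members and -0.03 for all genes.

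MITO minus NES was -2.08 ± 0.33 for MYC, -2.03 ± 0.37 for SOX4, -1.70 ± 0.44 for KLF10, -1.63 ± 0.52 for ID1, -1.61 ± 0.31 for KLF6, -1.19 ± 0.31 for HES1 and -1.15 ± 0.30 for ID2. These 7 were called, where 10.3% of genes were called lower, and BHLHE40 (-0.88 ± 0.54, adjusted p = 0.276) was not. The block called BHLHE40 too (adjusted p = 0.00405), with 34.8% of genes in either direction. Without the first enriched NES library fewer members and fewer of all genes were called, with a single library left in that group. Total-count scaling moved the median of all genes from -0.07 to -0.97 here and that of the members from -1.62 to -2.54.

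ERM minus NES was -1.14 ± 0.48 for ID1, -1.09 ± 0.23 for HES1, -0.96 ± 0.25 for SOX4, -0.96 ± 0.19 for KLF6, -0.90 ± 0.44 for BHLHE40, -0.87 ± 0.24 for MYC, -0.82 ± 0.26 for ID2 and -0.72 ± 0.25 for KLF10. edgeR called 0 of 8 members and 0.0064% of genes, and 7 of 8 members had an unadjusted p under 0.05, against 13.9% of genes. The smallest adjusted p was 0.0983, for KLF6 and HES1. With the block, 7 members were called lower, all except ID1 (adjusted p = 0.174), and 6.1% of genes were called in either direction. DESeq2 called 5, with 2.23% of genes. The difference for KLF6 was -0.97 ± 0.13 with the block (adjusted p = 0.00131). In the authors' deposited table the log2 ratio of ERM over NES was -1.23 for ID1, -0.92 for HES1 (unadjusted p = 1.47e-07), -0.87 for MYC, -0.85 for SOX4 and -0.72 for ID2. In the authors' deposited table it was -0.27 for BHLHE40, -0.20 for KLF6 and -0.16 for KLF10 (unadjusted p = 0.406). These are not the same quantity as the differences of enrichment above. They lie close to the log2 ratio of mean CPM in enriched ERM over enriched NES libraries, with inputs left out, which was -0.24 for KLF6, -0.20 for KLF10, -0.91 for MYC and -0.96 for HES1.

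LMNB1 minus ERM called 7 members lower, with 18.2% of genes: KLF10 (-1.86 ± 0.38), MYC (-1.70 ± 0.28), BHLHE40 (-1.29 ± 0.46), SOX4 (-1.18 ± 0.32), ID2 (-1.05 ± 0.26), KLF6 (-0.74 ± 0.26) and HES1 (-0.73 ± 0.26). ID1 had -0.97 ± 0.43 (adjusted p = 0.0846), and the block called it as well (adjusted p = 0.024, with 48% of genes in either direction). DESeq2 called 5, with 34.8% of genes in either direction. Without the second enriched ERM library, or the ERM input numbered 3 or 4, 4 members were called. In these fits 4867, 4839 and 5022 genes were called in either direction, against 5292 of 16139 with all libraries.

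**Figure D5:**
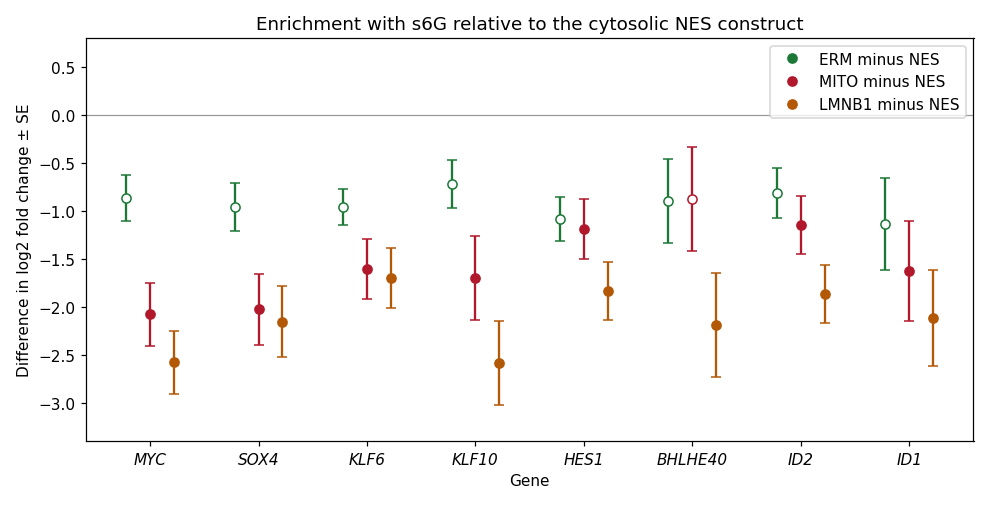
Difference of the log2 fold change on enrichment with s6G from that of the NES construct (vertical axis, ± SE) for ERM (green), MITO (red) and LMNB1 (orange), by gene; filled points passed an edgeR adjusted p of 0.05. All 24 values lie below 0, and those of ERM, from -0.72 to -1.14, are open.

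Genes related to the members by family or pathway gave the following counts in the ERM and NES enrichments, as descriptions beside the 34.3% and 28.7% of genes called higher. Of BMP and TGF-beta feedback genes, 12 of 12 tested rose in both (medians 1.34 and 1.98), among them SMAD7, an inhibitor of receptor signalling (1.91 ± 0.19 and 2.49 ± 0.27), and NOG, a secreted BMP antagonist (2.00 ± 0.41 and 2.46 ± 0.64). ID4, a relative of ID1 and ID2, rose by 2.56 ± 0.24 in NES. Of other Kruppel-like factors, 10 of 11 rose in both (medians 1.32 and 1.92), with KLF9 at 1.97 ± 0.11 and 2.70 ± 0.15 and KLF5 at 1.49 ± 0.13 and 2.27 ± 0.20. Of other SOX genes, 6 of 9 rose in both, with SOX2, a stem-cell factor, at 1.77 ± 0.21 and 2.25 ± 0.31.

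Of Notch targets and HES and HEY genes, 4 of 7 rose in both, with HEY1 at 1.44 ± 0.11 and 2.18 ± 0.16. Of the MYC partners 7 of 10 rose in both, among them the MAX dimer partner MXD1 (1.07 ± 0.14 and 1.46 ± 0.20). Of circadian clock genes, 5 of 12 rose in ERM and 6 of 12 in NES, with NFIL3 at 1.44 ± 0.13 and 2.25 ± 0.19. Of the E proteins and other ID partners 1 of 4 rose in both, TCF4 (1.19 ± 0.15 and 1.30 ± 0.22), while TCF3 (-0.68 ± 0.11) and TCF12 (-0.40 ± 0.14) fell in ERM. No gene of these 7 lists fell in NES, while the block called 1 of the E proteins lower there.

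Long-lived housekeeping mRNAs went the other way: 10 of 11 fell and 1 rose in both constructs (medians -1.59 and -1.25), against 28.9% and 26.4% of genes called lower. GAPDH, a glycolytic enzyme, fell by 2.08 ± 0.17 in ERM and 1.65 ± 0.24 in NES, and ALDOA by 2.06 ± 0.11 and 1.55 ± 0.16. mRNAs that MYC is known to drive also fell more often than they rose, 10 against 1 of 16 in ERM (11 against 3 with the block) and 8 against 1 in NES, with the polyamine enzyme SRM at -1.75 ± 0.11 and -1.41 ± 0.15. Genes of AU-rich mRNA decay were mixed, with 4 higher and 6 lower of 14 in ERM and 5 and 6 in NES. In LMNB1 with s6G, 7 of 11 housekeeping mRNAs fell (7.64% of genes were called lower), while 0 of the 13 BMP and TGF-beta genes and 0 of the 11 Kruppel-like factors were called. With the block 8 of 11 housekeeping mRNAs fell, 2 of the 13 BMP and TGF-beta genes rose and 1 of the 11 Kruppel-like factors fell. In MITO with s6G, 1 gene was called over all 10 of these lists, HNRNPD (1.64 ± 0.32), which binds AU-rich mRNA. With the block, 15 of their 112 tested genes were called, 7 higher and 8 lower, of which 5 of the lower were housekeeping mRNAs.

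Across the 18 groups, members resembled each other to different degrees. Pearson's r of mean log2 CPM between 2 members had a median of 0.70 over 28 pairs, from -0.36 (ID1 and KLF6) to 0.94 (KLF6 and KLF10). The r of a member with the mean of the others was 0.88 for HES1, 0.86 for SOX4, 0.83 for MYC, 0.80 for KLF10, 0.77 for KLF6, 0.76 for BHLHE40, 0.40 for ID2 and -0.10 for ID1. The groups share constructs and libraries' preparation, so these values are descriptions without a test. Among 8366 other genes, the closest to the members' mean profile were ID4 (r = 0.961), HOXD13 (0.958), FOXC1 (0.919), ZNF697 (0.918) and RBM4B (0.911).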

How the data were processed

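PolyA-selected RNA of HEK293T cells was sequenced in 40 libraries, 20 before and 20 after streptavidin enrichment. The authors deposited read counts, whole numbers for 57992 gene rows. The build GRCh38/hg38 and the tools HTSeq 0.7.2, HISAT2 2.1.0, DESeq2, deepTools 2.5.3 and SAMtools stand in the submitters' processing notes. The annotation and the strand setting were not given in the sources used here. Whether reads of overlapping genes were told apart is therefore not known. A deposited table of log2(TPM + 1), one column per MITO group, was returned to TPM and divided by 2, because each column summed to that of both replicates. The authors' deposited tables of log2 fold changes and p-values (ERM over NES unadjusted, LMNB1 adjusted) were compared and not used in any fit. Tool versions for those tables were not given in the sources used here.

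Libraries were grouped by title. The count model was that of edgeR 4.0.16, under R 4.3.3 (robust quasi-likelihood, TMM scaling, default low-count filter, Benjamini-Hochberg adjustment over all tested genes, called at 0.05). Separate fits held the 16 MITO, the 12 ERM and NES, and the 12 LMNB1 libraries. A fit of the 20 s6G libraries compared constructs, and a fit of 12 inputs compared the s6G effect of MITO and LMNB1. Errors are standard errors from the fit, and intervals are 95% intervals. DESeq2 1.42.0, other scalings, other filters, a replicate block and leaving out each library were alternatives. The main edgeR fits, without a block, were tested on simulated data for some of the comparisons, and the alternatives were not.

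Enriched and input libraries of a number are 1 biological replicate per the design text. Their deviations from group means correlated with r of 0.10 to 0.64 for MITO, 0.15 to 0.20 for ERM, 0.19 for NES and 0.04 to 0.50 for LMNB1. Blocked values stand beside enrichment results whose member calls they change. Inputs of different arms share only a number, and their blocked counts are in the closing section.

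The members and lists were chosen with earlier results of these data known. All 10 members were described everywhere. From each of 14 lists, up to 3 called genes of largest absolute change could be named, and the 5 genes most like the members' mean profile at a mean log2 CPM of at least 4. Promoters came from RefSeq, GRCh38.p14.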

Additional observations from a re-analysis of the deposited data

Results flagged for a closer look

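Enrichment with s6G differed between constructs by an interaction test without the replicate block for the following members. Relative to NES, MITO was lower for MYC (-2.08), SOX4 (-2.03), KLF10 (-1.70), ID1 (-1.63), KLF6 (-1.61), HES1 (-1.19) and ID2 (-1.15), in log2 units. Relative to NES, LMNB1 was lower for KLF10 (-2.59), MYC (-2.58), BHLHE40 (-2.19), SOX4 (-2.16), ID1 (-2.12), ID2 (-1.87), HES1 (-1.84) and KLF6 (-1.70). Relative to ERM, LMNB1 was lower for KLF10 (-1.86), MYC (-1.70), BHLHE40 (-1.29), SOX4 (-1.18), ID2 (-1.05), KLF6 (-0.74) and HES1 (-0.73). The first 2 sets share the NES libraries and the last 2 share the LMNB1 libraries. For ERM minus NES the test without the block called 0 of 8 members. The block called 7 of 8, with 6.1% of genes called in either direction. Of 16 tests for a stray library in the ERM groups of 4, none passed the limit.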

How the results depend on the processing

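No member's call changed direction under any alternative run, and the 8 ERM and 8 NES calls held in all of them. Numbers here count members called. With the replicate block, 2 were called for MITO s6G enrichment, 1 for s4U, 1 for APEX only, 2 unlabelled, 4 for s6G minus unlabelled, 3 for s4U minus unlabelled, 7 for ERM minus NES, 2 for LMNB1 s6G and 1 for LMNB1 s6G minus unlabelled. Among inputs, where a number is only shared, the block called 4 for LMNB1 s6G (4623 genes against 21) and 0 for MITO. LMNB1 inputs of the same number in different arms correlated with r of 0.43 to 0.55, and MITO inputs other than APEX only with r of 0.5 to 0.65. MITO APEX-only inputs correlated negatively with the same number of other arms (-0.39 to -0.60). Crossed numbers, added after the data were seen, gave 4 for s6G (2790 genes) and 1 for s4U (1199 genes). DESeq2 called 1 for MITO s6G, 1 and 1 for s6G and s4U minus unlabelled, 5 for ERM minus NES, 2 for LMNB1 s6G and 1 for LMNB1 s6G minus unlabelled. Without a filter the counts were 1 for MITO s6G minus unlabelled (563 genes called in all), 5 for ERM minus NES (104 genes), 1 for LMNB1 s6G (2324) and 1 for LMNB1 s6G minus unlabelled (939), and a stricter filter gave 2 for LMNB1 s6G (2608). Total counts gave 1 for MITO APEX only (1131), 2 for LMNB1 s6G (2424), 1 for LMNB1 s6G minus unlabelled (736) and 4 for LMNB1 minus ERM (4538), as did RLE scaling (4, with 5425 genes). Leaving out single libraries also moved the counts for MITO s6G and LMNB1 s6G minus unlabelled, for LMNB1 minus ERM and for MITO minus NES. Without the second enriched ERM library, or the ERM input numbered 3 or 4, LMNB1 minus ERM called 4 (4867, 4839 and 5022 genes). No member counts are given for fits that leave 1 library in a group. The cause of these moves was not tested. Leaving a library out of a group of 2 leaves a single library there. Over all genes, calls ranged from 0 to 2815 for MITO s6G enrichment (48 as reported), 784 to 3394 for LMNB1 s6G (2150) and 0 to 952 for ERM minus NES (1). Depth limits the unlabelled MITO values, since 1 enriched library there held 2 to 22 counts of each tested member.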
